A study of Mus musculus with 9 samples.

Results

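The plasma cells described here were 2544 of the 31759 quality-filtered barcodes of a series of single-cell libraries of CD11b+ cells from the mouse intestine. Each was chosen on its own counts of unique molecular identifiers (UMIs, each 1 captured RNA molecule). A plasma cell had at least 20 UMIs of Jchain, 3 of Mzb1 and 1 of Xbp1, fewer than 10 UMIs of the macrophage gene Lyz2 and no UMI of the T cell gene Cd3e, in a barcode with at most 15% mitochondrial UMIs and at least 200 genes. These 5 genes therefore mark the cells by construction, and their levels are given below as a description with no test.

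The libraries came from male C57BL/6 mice, 7 to 8 weeks old and wild type unless stated, and the labelled cells are CD11b+ lamina propria cells. The groups were the colon of germ-free mice (GF, 2 libraries), the small intestine of mice labelled as normal, with no statement of housing (2 libraries), the colon of mice given pan-antibiotics in the drinking water (ampicillin 1 g/L, vancomycin 0.5 g/L, neomycin 1 g/L and metronidazole 1 g/L, 1 library), the colon of Nlrc4-deficient mice given 2.5% wt/vol dextran sulfate sodium (DSS) for 7 days (1 library), the colon of wild-type mice given the same DSS (1 library), and the colon of untreated specific pathogen free (SPF) mice (2 libraries). DSS is a detergent-like polysaccharide that injures the colonic epithelium. The cells had been sorted on CD45 and CD11b, a gate meant for myeloid cells, so that the plasma cells are those that passed such a gate and need not be a fair sample of all plasma cells in the tissue. The study's methods describe pooled mice for SPF colon. Whether the replicate libraries are separate mice is not stated in the labels, and p-values therefore measure only the spread between these libraries, which may be technical.

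Plasma cells are the antibody-secreting end stage of B cells. In the gut lamina propria most of them make IgA, which the J chain joins into dimers that the epithelium carries into the lumen. To make that much protein, the cell enlarges its endoplasmic reticulum under the transcription factor Xbp1, and it builds up the machinery that imports, folds, glycosylates, checks and ships proteins.

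Plasma cells were unequally spread over the libraries. GF colon 1 and 2 held 44 and 11, small intestine 1 and 2 held 1641 and 271, antibiotics colon 17, Nlrc4 DSS colon 214, DSS colon 118, and SPF colon 1 and 2 held 187 and 41. As a share of the kept barcodes, small intestine 1 stood apart at 44.9%, against 0.387% to 7.15% in the other 8 libraries. The small intestine therefore averaged 24.9 ± 28.3% and the SPF colon 4.42 ± 3.86% (SD, n = 2 each), and the GF colon averaged 1.71 ± 1.87%. Neither the small intestine nor the GF colon differed from the SPF colon beyond the spread between libraries (two-sided exact permutation test, p = 0.667 for each, with 0.33 the smallest p that 2 against 2 libraries allow).

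Over all barcodes the libraries held 13243317 to 64453601 UMIs, and plasma cells were deeply covered, with medians of 16331 to 30273 UMIs and 2252 to 3212 genes per cell by library, against medians of 3121 to 5600 UMIs in mature B cells. The 9 libraries form 36 pairs, which shared 0 to 20 barcodes each. Of the plasma cells, 27 had a barcode that also occurred in another library, and 1 barcode was a plasma cell in 2 libraries. Itgam, the gene of CD11b, was low in the plasma cells, at 8.91 to 47.9 CPM (UMIs of the gene per 1000000 UMIs of the cells summed). The summed level of 9 B cell markers was 134 to 360 CPM and that of 7 T cell markers 4.87 to 21.4 CPM. A sum of 4 neutrophil markers stood at 212 CPM in Nlrc4 DSS colon and 684 CPM in DSS colon, against 4.39 to 15.5 CPM in the other 7 libraries. Nlrc4 itself does not check the mutant label in plasma cells, where it lay between 0 and 2.99 CPM in every library. In mature B cells Nlrc4 stood at 13.8 CPM in Nlrc4 DSS colon and 12.5 CPM in DSS colon, and 3' counts need not see a deleted part that lies elsewhere in the gene.

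The markers of plasma cells were abundant in the chosen cells. Jchain, which links antibody units, had a median of 1138 and 553 UMIs per cell in GF colon 1 and 2, 837 and 947 in small intestine 1 and 2, 1702 in antibiotics colon, 736 in Nlrc4 DSS colon, 757 in DSS colon, and 714 and 1718 in SPF colon 1 and 2. The limit of 20 UMIs lay far below these medians. Between 20 and 29 UMIs, just inside it, there were 8 cells (5 IgA, 0 IgM and 3 IgG), and between 10 and 19, just outside it, there were 25 (11 IgA, 5 IgM and 9 IgG). Mzb1, an endoplasmic reticulum cochaperone of antibody assembly, had medians of 15 to 44 UMIs per cell and Xbp1 of 25 to 53. When Jchain was replaced by a limit of 10% immunoglobulin UMIs, 2504 cells were selected, 2499 of them the same cells.

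Immunoglobulin genes took up much of the RNA of these cells. Their median share of a plasma cell's UMIs was 49.8% and 40.3% in GF colon 1 and 2, 54.8% and 55.1% in small intestine 1 and 2, 57.5% in antibiotics colon, 37.9% in Nlrc4 DSS colon, 46% in DSS colon, and 41.6% and 55.2% in SPF colon 1 and 2. In mature B cells of the same libraries the median was 0.507% to 1.53%. Igha alone reached 100372 to 213749 CPM in plasma cells, against 42.8 to 4677 CPM in mature B cells and 45.5 to 3402 CPM in T cells. T cells do not make Igha, so their level reflects free RNA in the droplets. It may understate that RNA, because the T cells were limited to fewer than 5 UMIs of Jchain. The level was highest in small intestine 1, the library with the most plasma cells.

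Plasma cells were set beside mature B cells of the same libraries (2927 barcodes with at least 1 UMI of Ms4a1, 2 of Cd79a and fewer than 5 of Jchain). Both classes were chosen on measured values, so these ratios are a description with no test. Of 11311 genes with at least 50 UMIs, 120 (1.06%) were at least 2 times higher in plasma cells in all 9 libraries and 846 (7.48%) at least 2 times lower, on log2(CPM + 10). Since immunoglobulin RNA fills the totals of plasma cells, the split turned to 347 higher and 250 lower once those genes were left out of the totals. The median of all genes was -0.53 to -0.31 with them and -0.14 to 0.08 without them. Of the 12 plasma cell markers, 11 were higher in all 9 libraries, among them Jchain, Mzb1 and Xbp1, which chose the cells. Txndc5, a disulfide isomerase that was not used to choose the cells, was higher by a log2 of 3.85 to 5.11 over the libraries. Tnfrsf17, the BCMA receptor for the survival factor APRIL, was higher by 3.38 to 4.34, Sdc1, the surface proteoglycan CD138, by 1.85 to 3.81, and Prdm1, the transcription factor Blimp-1, by 1.73 to 3.07. The exception was Irf4, a transcription factor of activated B and plasma cells, at -2.44 to -1.38, or -1.48 to -0.59 without the immunoglobulin genes.

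Genes of the B cell identity were low in the plasma cells. All 9 B cell markers were at least 2 times lower in every library, and 6 of the 8 outside the immunoglobulin genes stayed so once those genes were left out. Both counts include Ms4a1, which chose the mature B cells. Pax5 and Ebf1, transcription factors that hold the B cell program, stood at log2 ratios of -5.07 to -3.07 and -6.20 to -4.10. Of 9 MHC class II genes, which serve antigen presentation, 7 were lower in every library and 4 without the immunoglobulin genes. Cd28, a costimulatory receptor best known from T cells, was among the survival and activation receptors that were higher, by a log2 of 3.88 to 5.15, and so was the surface antigen gene Ly6c2, by 3.67 to 6.55. Ly6c2 is also a monocyte marker, and in plasma cells it lay at 248 to 1455 CPM.

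**Figure D1:**
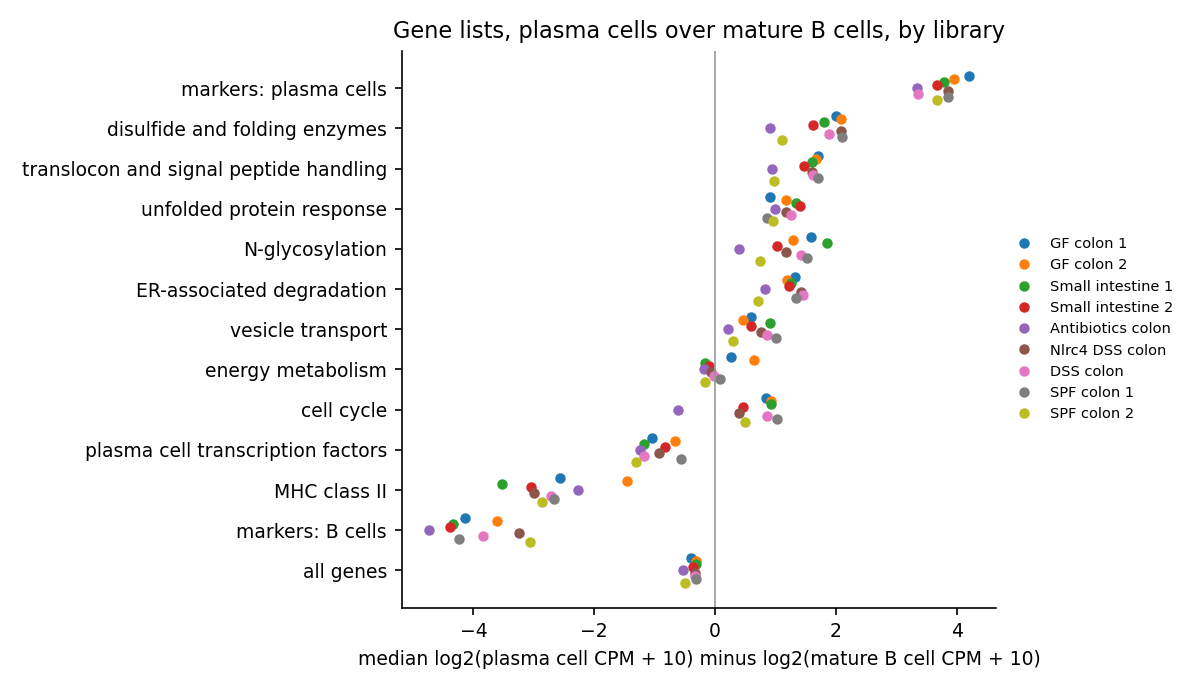
Median log2 ratio of plasma cells to mature B cells over the genes of each list (x axis, on CPM + 10), with 1 point per library and lists down the y axis. The plasma cell markers lie at 3.35 to 4.21 and the B cell markers at -4.74 to -3.07, and the secretory lists lie above the median of all genes in each of the 9 libraries. These lists include genes that chose the cells (Jchain, Mzb1, Xbp1 and Ms4a1).

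The secretory pathway was examined through 6 lists ordered along it. Of 18 genes that import proteins into the endoplasmic reticulum, 5 were at least 2 times higher in plasma cells in all 9 libraries, among them Ssr4, a translocon-associated protein, at log2 ratios of 2.68 to 3.85, and Sec11c, a signal peptidase subunit, at 2.48 to 3.22. Of 16 disulfide and folding enzymes, 8 were higher, among them Mzb1, which chose the cells, and Pdia4 at 2.78 to 4.42. The oxidase gene Ero1lb went the other way, at -1.89 to -1.03, but passed the 2-fold limit in fewer than 9 libraries without the immunoglobulin genes. Of 18 genes of the unfolded protein response, by which the compartment adjusts its folding capacity, 7 were higher. They include Xbp1, which chose the cells. Sdf2l1, a partner of the chaperone BiP, stood at 2.72 to 4.91, and Hsp90b1, the chaperone GRP94, at 1.89 to 3.24. Creb3l2, a membrane-bound transcription factor counted outside this list, stood at 2.48 to 3.46. BiP itself, the gene Hspa5, lay at only 0.27 to 1.13, and at 1.15 to 1.92 without the immunoglobulin genes.

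The remaining lists cover degradation, glycosylation and transport. Of 14 genes of endoplasmic reticulum-associated degradation, which removes misfolded proteins, 5 were higher, with Edem1 and Edem2, which act on the sugars of misfolded glycoproteins, at 2.71 to 3.78 and 3.27 to 5.07, and Derl3, a membrane protein of the same pathway, at 3.23 to 4.44. Of 16 N-glycosylation genes 3 were higher, including Krtcap2, a subunit of the enzyme that attaches the sugar chain, at 1.5 to 2.94. Of 18 vesicle transport genes 4 were higher, including Lman1, a receptor that carries glycoproteins out of the endoplasmic reticulum, at 2.40 to 4.73. The lists' medians ran from 0.91 to 2.11 for folding enzymes over the libraries to 0.21 to 1.01 for vesicle transport. Without the immunoglobulin genes the counts became 13 of 18 for import, 13 of 16 for folding, 10 of 18 for the unfolded protein response, 10 of 14 for degradation, 9 of 16 for glycosylation and 7 of 18 for transport. Mzb1 and Xbp1 again count among the folding and unfolded protein response genes. Antibiotics colon had the lowest median of the 9 libraries for folding, import, glycosylation and transport with the immunoglobulin genes counted, and it was also the library with the largest immunoglobulin share.

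A promoter element of these genes was read from the genome sequence. The endoplasmic reticulum stress element, a CCAAT box and a CCACG box at a fixed distance, is known from mouse and human chaperone genes, where NF-Y and ATF6 bind it. The letters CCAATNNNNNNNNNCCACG were searched on both strands in RefSeq promoters of GRCm38.p6, 250 bases before to 50 after each gene's start. They occurred in 35 of all 27025 promoters (0.13%) and in 9 of the 78 of 98 list genes that matched a promoter (11.5%). The matches were 4 of 15 unfolded protein response genes (Creld2, Dnajc3, Hsp90b1 and Hspa5), 3 of 13 folding genes (Calr, Canx and Pdia6) and 2 of 12 degradation genes (Derl3 and Syvn1), with 0 of 13 import, 0 of 13 glycosylation and 0 of 14 transport genes. Of the 9 genes with the letters 5 were at least 2 times higher in plasma cells in all libraries, and of the 69 without them 22 were. The promoters of 3 genes are printed because they show the element on either strand, beside a gene with a low ratio of plasma cells to B cells (Hspa5) and genes with high ratios (Derl3 and Creld2), with the fixed letters of the match in capitals.
Hspa5, chr2:34771840-34772139, + strand: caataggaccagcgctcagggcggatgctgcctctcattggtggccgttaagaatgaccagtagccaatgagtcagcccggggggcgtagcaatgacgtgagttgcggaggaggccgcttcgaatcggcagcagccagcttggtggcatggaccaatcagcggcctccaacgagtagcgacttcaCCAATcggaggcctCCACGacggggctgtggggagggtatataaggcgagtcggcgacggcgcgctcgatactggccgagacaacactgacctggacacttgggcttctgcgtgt
Derl3, chr10:75893148-75893447, + strand: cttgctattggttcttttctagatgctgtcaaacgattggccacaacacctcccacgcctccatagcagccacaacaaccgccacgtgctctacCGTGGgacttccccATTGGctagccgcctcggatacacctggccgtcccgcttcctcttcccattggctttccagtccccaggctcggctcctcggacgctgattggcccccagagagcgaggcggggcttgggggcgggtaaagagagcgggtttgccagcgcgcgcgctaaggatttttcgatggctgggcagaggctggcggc
Creld2, chr15:88819396-88819695, + strand: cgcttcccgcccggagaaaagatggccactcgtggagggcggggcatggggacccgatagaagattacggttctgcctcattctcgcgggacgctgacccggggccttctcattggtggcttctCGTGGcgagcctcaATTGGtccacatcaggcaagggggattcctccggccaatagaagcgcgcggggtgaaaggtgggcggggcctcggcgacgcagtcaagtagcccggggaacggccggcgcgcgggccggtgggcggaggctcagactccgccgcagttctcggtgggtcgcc
In Hspa5 the match reads along the gene from base 186 of the 300, and in Derl3 and Creld2 it is the reverse complement, from bases 95 and 125. A match is a description of the letters and not a measured site. Creld2, a stress-induced secretory factor, stood at log2 ratios of 1.90 to 3.47, whereas Calr, a calcium-binding chaperone whose promoter also held the letters, lay at -0.31 to 0.71.

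Isotypes were called by the largest of Igha, Ighm, Ighg1, Ighg2b, Ighg2c and Ighg3 in each cell, and IgA dominated every library. Over all libraries 2460 cells were IgA, 65 IgG (25 IgG1, 29 IgG2b, 9 IgG2c and 2 IgG3) and 19 IgM. The IgA share was 97.7% and 90.9% in GF colon 1 and 2, 98.4% and 96.3% in small intestine 1 and 2, 94.1% in antibiotics colon, 92.1% in Nlrc4 DSS colon, 90.7% in DSS colon, and 92% and 97.6% in SPF colon 1 and 2. The GF colon averaged 94.3 ± 4.82% and the SPF colon 94.8 ± 3.95%, a difference of -0.452 percentage points (exact permutation p = 1, n = 2 each). The small intestine averaged 97.3 ± 1.45%, 2.56 points above the SPF colon (exact permutation p = 0.667, n = 2 each). The IgA shares of these 3 groups were not told apart by the libraries at hand.

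The rarer isotypes differed in kind between libraries. Nlrc4 DSS colon had 17 IgG cells of 214 (7.94%, exact Clopper-Pearson 95% interval 4.7 to 12.4), and 13 of them were IgG1. DSS colon had 5 of 118 (4.24%, 1.39 to 9.61) with 0 IgG1, which allows a share of up to 3.08%. SPF colon 1 had 11 of 187 (5.88%, 2.97 to 10.3), 7 of them IgG2b, and SPF colon 2 had 0 of 41, which allows up to 8.6%. In small intestine 1, 23 of 1641 cells (1.4%, 0.891 to 2.1) were IgG and 17 of those IgG2b. The 2 IgG cells of the GF colon, 1 in each library, were IgG1. IgM cells numbered 0 of 214 in Nlrc4 DSS colon, which allows up to 1.71%, and 6 of 118 in DSS colon (5.08%, 1.89 to 10.7). Intervals and limits of this kind cover counting error only, and with 1 library each the DSS and Nlrc4 DSS colon were not tested. No library held 10 IgM cells, so IgM cells were not compared with IgA cells by a test. The 1 IgM cell of SPF colon 2 had an immunoglobulin share of 1.22%, in the range of mature B cells. The median share of the 5 IgG1 cells of small intestine 2, 1.06%, lay there too, with a median of 44 Jchain UMIs and Ms4a1 at 451 CPM. All 7 IgG cells of that library had a median share of 11.2%, so not each of the 5 lay in that range.

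**Figure D2:**
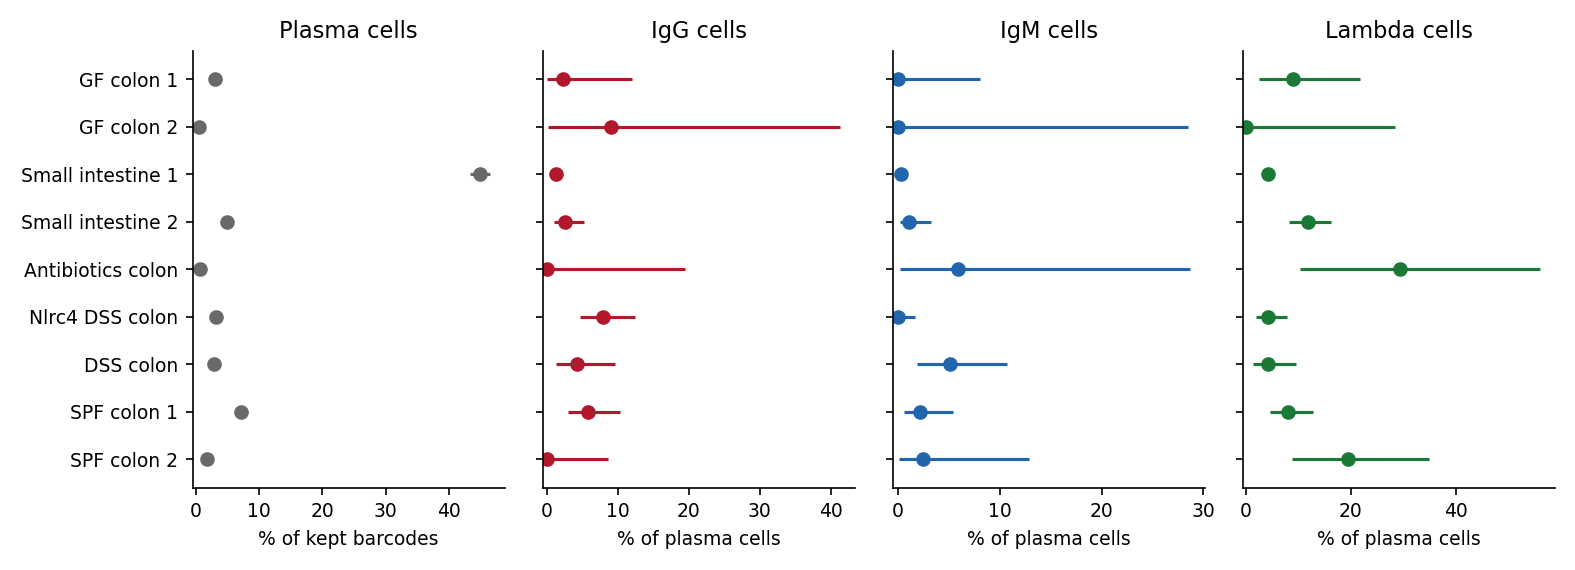
Share of kept barcodes that were plasma cells, and shares of plasma cells that were IgG, IgM or lambda (x axes, percent), by library, with exact 95% intervals. Small intestine 1 stands apart at 44.9% plasma cells, and the intervals are widest where cells are few (11 in GF colon 2, 17 in antibiotics colon).

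IgG cells were set beside IgA cells within the 3 libraries that held at least 10 of each (small intestine 1 with 23 and 1614, Nlrc4 DSS colon with 17 and 197, SPF colon 1 with 11 and 172), a comparison added after the isotype counts were seen. Of 8195 genes tested with edgeR's quasi-likelihood test and the library as a block, 13 (0.159%) passed a Benjamini-Hochberg adjusted p of 0.05, 2 (0.0244%) higher and 11 (0.134%) lower in IgG cells. Apoe, which encodes the lipid carrier apolipoprotein E, had 93.4 CPM in IgG and 11.3 CPM in IgA cells of small intestine 1, 149 and 24.6 CPM in Nlrc4 DSS colon, and 737 and 39.9 CPM in SPF colon 1. It was higher in IgG cells in all 3 libraries, by a log2 of 3.11 (SE 0.26, adjusted p = 2.83e-05). Its UMIs lay in 5 of 23, 6 of 17 and 6 of 11 IgG cells, and in DSS colon, which was not in the test, 4 of 5 IgG cells held 454 Apoe UMIs. In small intestine 2, also untested, Apoe had 40.1 CPM in 7 IgG cells and 38 CPM in IgA cells. In GF colon 1 and 2 it had 0 and 22.1 CPM in 1 IgG cell each, and 38.3 and 31.2 CPM in IgA cells. IgM cells held it too, at 58.2 to 12043 CPM in the libraries that had any. With small intestine 1 left out 32 genes passed, with Nlrc4 DSS colon left out 29 and with no library block 1. The other gene that rose was Gm8369 (log2 2.10, SE 0.27, adjusted p = 0.00248), which no longer passed when cells with a UMI of the B cell gene Ms4a1 were left out (adjusted p = 0.164).

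The genes that fell in IgG cells included parts of the plasma cell program. Txndc5 had 740, 555 and 731 CPM in IgG cells of the 3 libraries in the same order, against 1403, 1096 and 1120 CPM in IgA cells (log2 -1.07, SE 0.13, adjusted p = 0.00195). Ccr10, the receptor for the mucosal chemokine CCL28, had 114, 62 and 60.5 CPM in IgG cells and 228, 187 and 237 CPM in IgA cells (log2 -1.66, SE 0.21, adjusted p = 0.00248). Tnfrsf17 had 75.7, 62 and 22 CPM in IgG cells and 162, 176 and 153 CPM in IgA cells (log2 -1.76, SE 0.25, adjusted p = 0.00770). In these 3 genes the IgG level lay below the IgA level in each of the 3 libraries. This is no separate support, since the genes were named for passing the test on the same libraries. Phlda1, an early-response gene (log2 -2.51, adjusted p = 0.0377), and Cxcl2, a chemokine that attracts neutrophils (log2 -1.51, adjusted p = 0.0436), fell as well. Of the light chain genes, Iglc1 fell by 3.75 and Iglc3 by 1.07 on the log2 scale and Igkc by 0.45, and the other 3 that fell were the variable segments Igkv12-46, Igkv5-48 and Ighv3-6.

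B cell markers were examined beside the isotypes. Of the 3 B cell list genes tested, 0 passed the adjusted test and 3 had an unadjusted p below 0.05 and were higher in IgG cells, against 148 of all 8195 genes. Ms4a1 had 22.7, 27.9 and 187 CPM in IgG cells and 3.35, 19.7 and 8.92 CPM in IgA cells (adjusted p = 0.160), and Cd79a, the signalling partner of the B cell receptor, had 558, 474 and 1143 CPM in IgG cells and 273, 306 and 273 CPM in IgA cells (adjusted p = 0.0807). With cells holding an Ms4a1 UMI left out, 16 genes passed, 11 of them the same, with Apoe at a log2 of 2.55, Txndc5 at -0.90, Ccr10 at -1.29 and Tnfrsf17 at -1.38. IgG cells also held less antibody RNA. Their median immunoglobulin share was 34.4% in small intestine 1, 24.9% in Nlrc4 DSS colon and 33% in SPF colon 1, against 55.3%, 39.1% and 43.6% in IgA cells. Median Jchain was 370, 353 and 373 UMIs in IgG cells and 846, 780 and 764 UMIs in IgA cells, which lies on a gene of the selection and is a description.

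**Figure D3:**
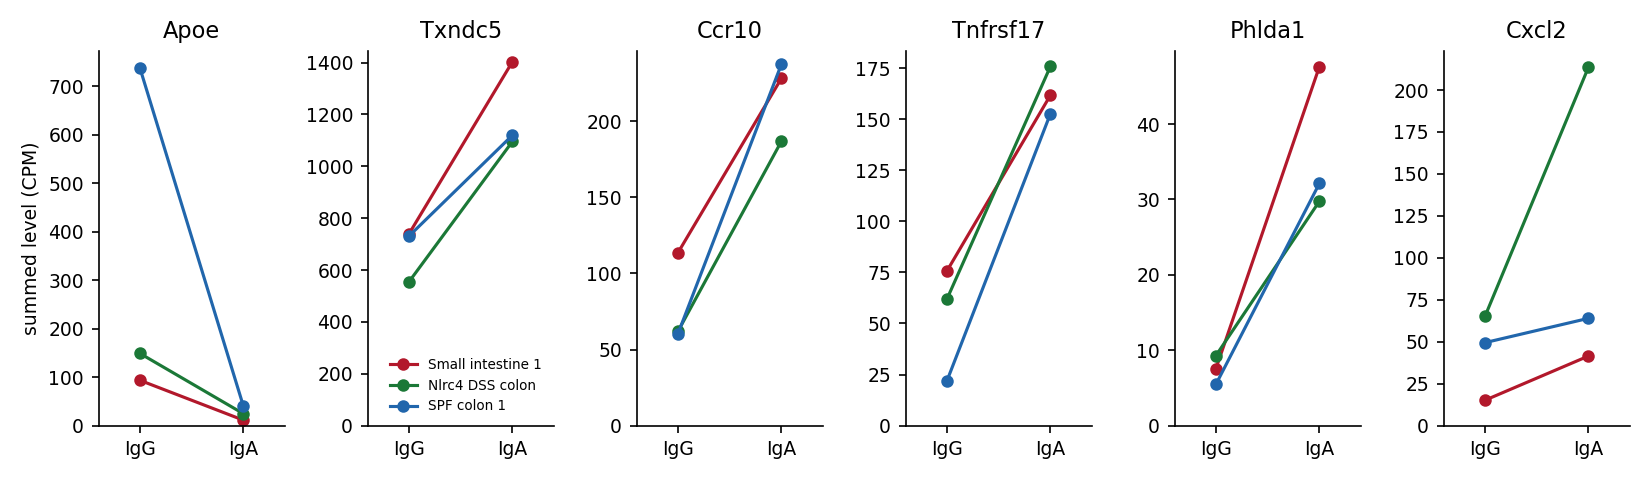
Summed level in CPM (y axis, each from 0) of 6 genes that differed between IgG and IgA plasma cells, with a line for each of the 3 libraries tested. Apoe was higher in IgG cells and the other 5 lower, in each of the 3 libraries.

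Light chains were called by the larger of Igkc and the sum of Iglc1, Iglc2 and Iglc3, and kappa prevailed. Lambda cells numbered 148 of 2544, of which 102 had Iglc1, 23 Iglc2 and 23 Iglc3 as the largest lambda gene. The median cell took 98.5% to 99.5% of its light chain UMIs from its own chain. The lambda share was 9.09% (2.53 to 21.7) and 0% in GF colon 1 and 2, 4.27% (3.34 to 5.36) and 11.8% (8.22 to 16.3) in small intestine 1 and 2, 29.4% (10.3 to 56) in antibiotics colon, 4.21% (1.94 to 7.83) in Nlrc4 DSS colon, 4.24% (1.39 to 9.61) in DSS colon, and 8.02% (4.56 to 12.9) and 19.5% (8.82 to 34.9) in SPF colon 1 and 2. The 0 of 11 cells in GF colon 2 allow a share of up to 28.5%. Replicates of 1 group lay as far apart as groups did: the small intestine averaged 8.04 ± 5.33%, the GF colon 4.55 ± 6.43% and the SPF colon 13.8 ± 8.13%, with exact permutation p = 0.667 against the SPF colon for each (n = 2 each). The lambda genes also differed within the small intestine, with 35 Iglc1, 13 Iglc2 and 22 Iglc3 cells in library 1 and 32, 0 and 0 in library 2.

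Lambda and kappa cells were compared in small intestine 1 and 2 and SPF colon 1, again with the library as a block. Of 8179 genes, 14 passed edgeR's test (0.171%), 2 (0.0245%) higher and 12 (0.147%) lower in lambda cells. The heavy chain genes Ighg1, Ighg2b and Ighg2c fell in lambda cells. Ighg1 had 6.08, 2.14 and 6.72 CPM in lambda cells and 243, 705 and 570 CPM in kappa cells (log2 -6.17, SE 0.29, adjusted p = 1.47e-06), with Ighg2b at -3.44 and Ighg2c at -4.42. These levels rest on few cells: the 3 libraries held 4, 5 and 1 IgG1 cells, and a single cell held 31.3%, 53% and 97.1% of their Ighg1 UMIs. Of the 65 IgG cells of all libraries 0 were lambda, against 145 of the 2460 IgA cells (5.89%). An approximate limit of the IgG share, 3 counts over the 65 cells, is 4.62%, and an exact interval would reach higher. That limit covers counting error only, over cells pooled from libraries with lambda shares of 0% to 29.4%, and the difference was not tested. Cxcl10, a chemokine gene induced by interferon, was the gene outside the immunoglobulins that rose, with 432, 466 and 279 CPM in lambda cells and 269, 293 and 140 CPM in kappa cells (log2 0.87, SE 0.13, adjusted p = 0.0161). With small intestine 1 left out 4 genes passed, with SPF colon 1 left out 46 and with no library block 1. The variable segment Ighv9-4 rose by a log2 of 5.73, and Ighv1-78, Ighv11-2, Ighv5-16 and Ighv5-4 fell.

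The other genes lower in lambda cells were the histone gene Hist1h2ap (log2 -1.26, adjusted p = 0.0129) and 4 genes of goblet cells, the mucus-secreting epithelial cells, namely Zg16, Tff3, Muc2 and Spink4 (log2 -5.76, -5.07, -5.82 and -3.89). In small intestine 2 a single cell held 99.1% of the Zg16 UMIs, 97% of Tff3, 97.7% of Muc2 and 96.2% of Spink4. When the 8 plasma cells with epithelial RNA were left out, 10 genes passed and Tff3 turned to a log2 of 0.23. Of 16 cell cycle genes 0 passed the adjusted test, 9 had an unadjusted p below 0.05 and were lower in lambda cells (277 of all 8179 genes did so), and the list's median was -0.81 against -0.01 for all genes.

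Receptors that guide plasma cells to the gut were read next. Ccr10 was present throughout, at 230 and 73.1 CPM in GF colon 1 and 2, 226 and 204 in small intestine 1 and 2, 154 in antibiotics colon, 178 in Nlrc4 DSS colon, 151 in DSS colon, and 228 and 153 in SPF colon 1 and 2. In mature B cells it did not exceed 0.245 CPM and in T cells 0.887 CPM. Both classes were limited to fewer than 5 UMIs of Jchain, which leaves out barcodes rich in free plasma cell RNA. The part of free RNA in Ccr10 was not tested. Ccr9, the receptor for the chemokine CCL25 of the small intestine, was uneven: 108 and 0 CPM in GF colon 1 and 2, 213 and 226 in small intestine 1 and 2, 19.8 in antibiotics colon, 20.5 in Nlrc4 DSS colon, 72.6 in DSS colon, and 86.3 and 13.4 in SPF colon 1 and 2. The small intestine libraries lay above each colon library. In mature B cells Ccr9 was at 0 to 19.1 CPM, whereas T cells had 207 and 210 CPM in small intestine 1 and 2 and 11.9 to 108 CPM in the colon libraries.

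The share of plasma cells with a Ccr9 UMI was 78.9% and 76% in small intestine 1 and 2 and 0% to 40.9% in the colon libraries, and after thinning each cell to 3000 UMIs it was 39.1% and 38.8% against 0% to 15.6%, with 0 to 5 shallower cells left out of each library. Of the mature B cells, which should lack the gene and were less deeply covered, 0% to 2.74% held a UMI of it before thinning. Small intestine over SPF colon gave a log2 of 2.24 (SE 0.84) with an unadjusted p of 0.0248 in edgeR, and the adjusted p was 0.9995 over the 8606 genes tested. The ratio was 1.58 with SPF colon 2 left out and 4.04 with SPF colon 1 left out. Of the other 13 homing and adhesion genes set beside B cells, Cxcr4, the receptor for the bone marrow and stromal chemokine CXCL12, was lower in plasma cells, at log2 ratios of -4.34 to -2.93, and Itgb7, the chain of the gut-homing integrin α4β7, lay at 0.81 to 2.76.

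**Figure D4:**
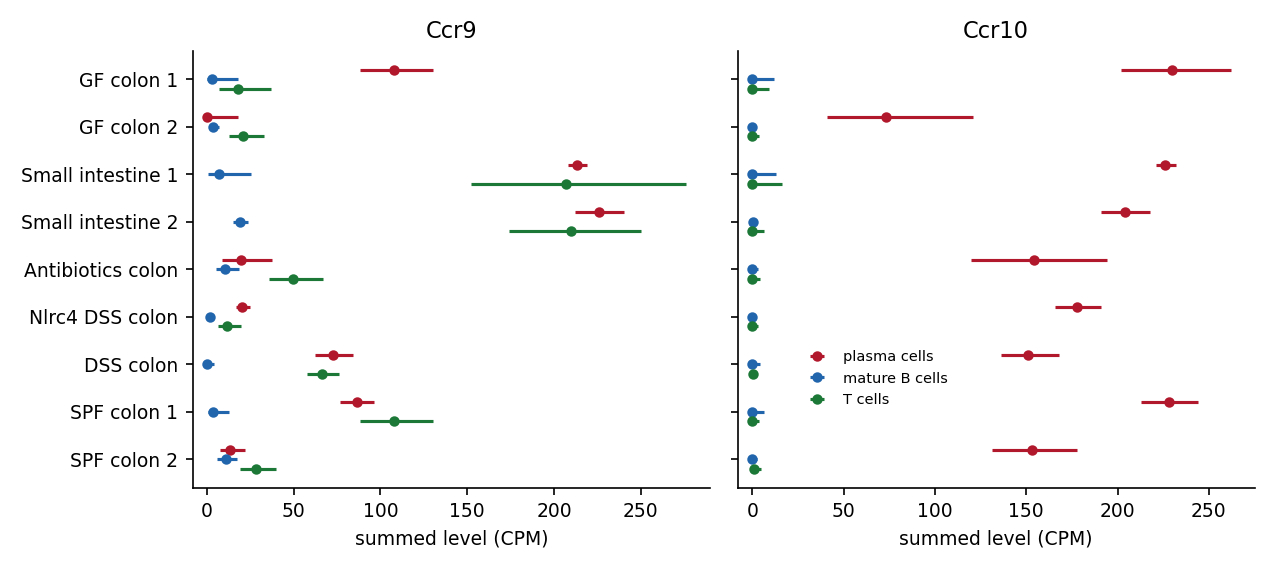
Summed level in CPM (x axes) of Ccr9 and Ccr10 in plasma cells, mature B cells and T cells by library, with exact Poisson 95% intervals. In plasma cells Ccr9 is at 213 and 226 CPM in the small intestine and at 108 CPM or less in the colon, while Ccr10 spans 73.1 to 230 CPM.

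A part of the plasma cells carried cell cycle RNA, as plasmablasts, the dividing precursors of plasma cells, do. Cells with at least 40 UMIs of 16 cell cycle genes per 10000 UMIs outside the immunoglobulins are called dividing here, a limit chosen after the values were seen, and 201 cells lay between 20 and 60. They numbered 415, with shares of 9.09% and 9.09% in GF colon 1 and 2 (4 and 1 cells), 17.7% (15.9 to 19.6) and 9.59% (6.36 to 13.7) in small intestine 1 and 2, 0 of 17 in antibiotics colon, 11.7% (7.7 to 16.8) in Nlrc4 DSS colon, 17.8% (11.4 to 25.9) in DSS colon, and 24.1% (18.1 to 30.8) and 7.32% (1.54 to 19.9) in SPF colon 1 and 2. The 0 of 17 cells allow a share of up to 19.5%. The SPF colon libraries thus lay on both sides of the small intestine and GF colon libraries (exact permutation p = 1 for each against the SPF colon, n = 2 each).

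Dividing cells held less antibody RNA, and more genes were detected in them. Their median immunoglobulin share was 20.4% and 19% in small intestine 1 and 2, 17.9% in Nlrc4 DSS colon, 18.6% in DSS colon and 26.9% in SPF colon 1, against 60.4%, 57.3%, 41%, 51.1% and 48.2% in the other plasma cells of the same libraries. In small intestine 1 the median gene number was 3878 in dividing cells and 2154 in the others, and median Jchain was 516 and 956 UMIs. Dividing cells there were also more deeply covered, with a median of 24253 against 16083 UMIs. Gene numbers were not matched for depth. IgG cells made up 20 of the 415 dividing cells, and the order of the isotypes differed between libraries. Dividing cells were 10 of 23 IgG cells (43.5%) and 17.3% of IgA cells in small intestine 1, 5 of 7 (71.4%) and 8.05% in small intestine 2, and 2 of 5 (40%) and 16.8% in DSS colon. They were 1 of 17 IgG cells (5.88%) and 12.2% of IgA cells in Nlrc4 DSS colon, and 1 of 11 (9.09%) and 25% in SPF colon 1. Of the 7 IgG cells of small intestine 2, 5 were IgG1 cells whose median immunoglobulin share of 1.06% is in the range of mature B cells. The median of all 7 was 11.2%. With dividing cells left out, IgG against IgA gave 25 genes, 10 of them the same as before, with Txndc5 at a log2 of -1.02 and Ccr10 at -1.54.

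In the 5 libraries with at least 10 dividing cells, 221 of 10166 genes (2.17%) were at least 2 times higher in dividing cells in all 5 and 29 (0.285%) at least 2 times lower, on CPM outside the immunoglobulin genes and with the score's own genes left out. The cells were split on measured values, so this is a description. The lower genes, named here after their values were seen, were led by Prg2. Prg2, the major basic protein gene known from eosinophil granules, had 14.1 and 22.6 CPM in dividing cells of small intestine 1 and 2, 1.75 in Nlrc4 DSS colon, 22.5 in DSS colon and 20.5 in SPF colon 1, against 243, 248, 86.5, 168 and 110 CPM in the other plasma cells. Over all plasma cells Prg2 was higher than in mature B cells in every library, by a log2 of 1.30 to 3.48. The other 3 eosinophil markers examined (Siglecf, Epx and Ccr3) lay at 0 to 2.67 CPM in plasma cells. The membrane protein genes Tmem176a and Tmem176b (mean log2 -2.33 and -2.20), the transferrin gene Trf (-2.10), Cd93, a surface receptor of long-lived plasma cells in mice (-2.04), and B2m, the shared chain of MHC class I (-1.34), were lower too. So were 5 of 17 immediate-early genes, whose RNA also rises when tissue is dissociated, such as Fos at -1.72 and Jun at -1.65. None of the 6 secretory lists had a gene past the limit in all 5 libraries, and their medians lay between -0.73 and 0.25.

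**Figure D5:**
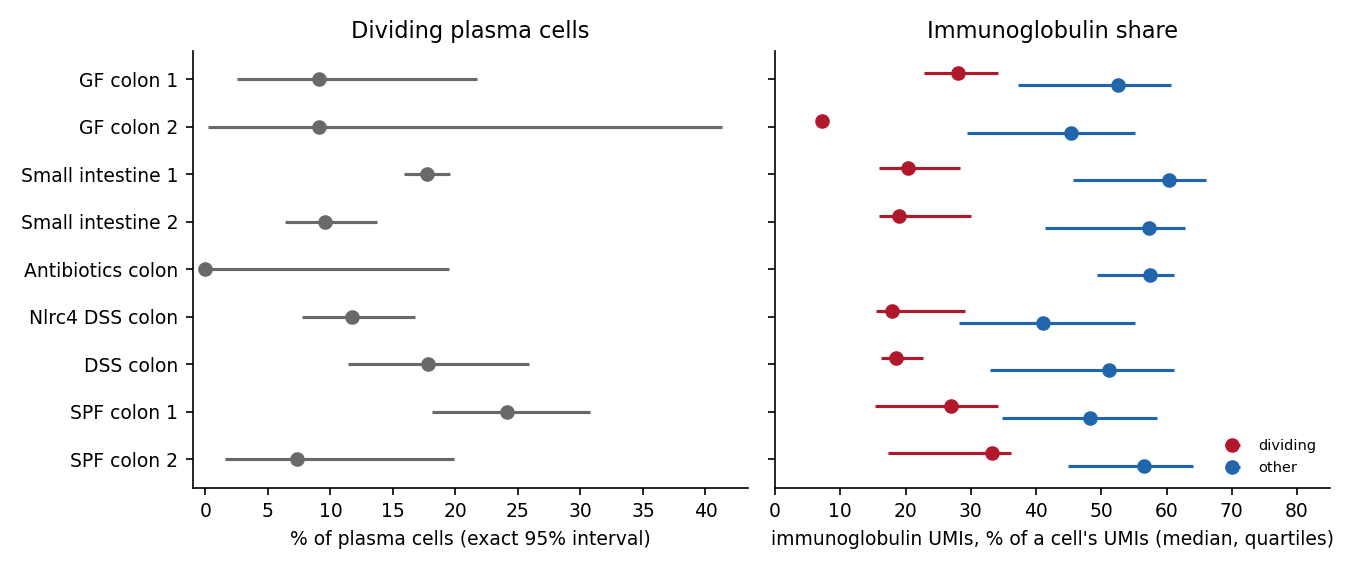
Share of plasma cells called dividing with exact 95% intervals (left), and immunoglobulin share of the UMIs of a cell in dividing and other plasma cells (right, median and quartiles), by library. The dividing cells lie at medians of 7.15% to 33.3% and the others at 41% to 60.4%, and antibiotics colon has no dividing cell.

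Germ-free plasma cells were compared with SPF plasma cells on counts summed per library, which asks what the absence of microbes leaves in these cells. Of 8606 genes 0 passed edgeR's test (0%), with 405 at an unadjusted p below 0.05 (170 higher and 235 lower in the GF colon) and 6 genes past DESeq2's. The GF libraries rest on 44 and 11 cells. In simulated data of this size, with a spread set by expression level alone, edgeR found 61% of 4-fold changes and 8% of 2-fold changes. Ighm had 90 and 297 CPM in the GF colon and 1814 and 322 CPM in the SPF colon (log2 -2.63, SE 0.71, edgeR adjusted p = 0.967). The MHC class II gene H2-Eb1 had 457 and 1033 CPM in the GF colon and 315 and 371 CPM in the SPF colon (log2 0.96, SE 0.36, edgeR adjusted p = 0.967). A single cell held 41.3% and 80.2% of the H2-Eb1 UMIs in GF colon 1 and 2, against 9.41% and 37.5% in SPF colon 1 and 2. The 6 secretory lists had medians of -0.04 to 0.19, against -0.04 for all genes.

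Small intestine plasma cells were compared with SPF colon plasma cells in the same fit. Of the 8606 genes 0 passed (0%), with 242 at an unadjusted p below 0.05 (86 higher and 156 lower) and 4 past DESeq2's test. In data simulated with a spread set by expression level alone, edgeR found 89% of 4-fold changes. Genes with a wider spread between libraries are not covered by that figure. With small intestine 1 left out, 12 genes passed. Egr1, an immediate-early transcription factor, had 104 and 243 CPM in the small intestine and 72.9 and 21.4 CPM in the SPF colon (log2 1.96, SE 0.49, edgeR adjusted p = 0.9995). Prg2 had 84.7 and 107 CPM in the small intestine and 44.7 and 46.3 CPM in the SPF colon (log2 1.20, SE 0.37, edgeR adjusted p = 0.9995). Neither gene passed the adjustment.

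The 3 conditions with 1 library each have no replicate, and a gene was named when its CPM was at least 2 times that of both SPF colon libraries or at most that far below both, with a pseudocount of 10 CPM. In antibiotics colon 55 of 6056 genes (0.908%) were higher and 118 (1.95%) lower. The 5 highest above the SPF colon were Hspb1, Ccl22, Ifitm2, Ccl3 and Ccl4, at 90.1 to 141 CPM, and for each gene 1 of the 17 cells held 87% to 100% of the UMIs. Cell cycle genes were low, with 8 of 16 past the fold. Mki67, a proliferation marker, had 19.8 CPM (95% exact Poisson interval 9.04 to 37.5) in antibiotics colon and 211 and 109 CPM in SPF colon 1 and 2, and Top2a, a topoisomerase of dividing cells, had 13.2 CPM (4.84 to 28.7) against 171 and 83.7 CPM. Pclaf, Hmgn2 and Racgap1, which act in replication, chromatin and cell division, had 0 UMIs in antibiotics colon (exact Poisson interval to 8.1 CPM). Of the secretory lists 0 genes passed the fold.

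In DSS colon 58 of 6995 genes (0.829%) were higher and 6 (0.0858%) lower than in both SPF colon libraries. S100a8 and S100a9, which form calprotectin in neutrophils, had 262 and 341 CPM, against 0.277 and 0.891 CPM of S100a8 and 4.44 and 1.78 CPM of S100a9 in SPF colon 1 and 2. These UMIs lay in 40 and 55 of the 118 cells, beside the sum of neutrophil markers of 684 CPM. They were uneven between cells: outside the immunoglobulin genes, S100a8 and S100a9 had 14.3 and 47.1 CPM in dividing cells of DSS colon. The other plasma cells of that library had 674 and 865 CPM. The part of free neutrophil RNA in them was not tested. The next were Spink4, Muc2 and Agr2, genes of goblet cells, with 91.7% to 96.8% of each gene's UMIs in a single cell. Ighm was also higher, at 5019 CPM in DSS colon against 1814 and 322 CPM, with 41.3% of its UMIs in a single cell. Iglc1 was lower, at 1811 CPM against 9791 and 27494 CPM, and so was Iglc3, at 317 CPM against 1443 and 891 CPM. Of the 6 secretory lists 0 genes passed the fold.

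In Nlrc4 DSS colon 32 of 7446 genes (0.43%) were higher and 24 (0.322%) lower than in both SPF colon libraries. Ighg1 reached 4668 CPM (4606 to 4731), against 524 and 0.891 CPM in SPF colon 1 and 2, with at least 10 UMIs in 24 cells. Hmox1, which encodes the heme-degrading enzyme heme oxygenase 1, had 173 CPM (161 to 186) against 22.5 and 24 CPM, and its UMIs were spread over 121 of 214 cells with 4.78% in the largest. Ifitm1, an interferon-induced membrane protein gene, had 128 CPM against 17.2 and 11.6 CPM, in 71 cells. S100a8 and S100a9 were higher as well, at 99.8 and 109 CPM, but 1 cell held 94.5% and 92.8% of their UMIs. Cd93 was lower, at 17.9 CPM (14.2 to 22.2) against 68 and 64.1 CPM. The gene model Gm47283 had 1 UMI in 214 cells (0.218 CPM), against 82.9 and 90.8 CPM in SPF colon 1 and 2, where 67.9% and 68.3% of the plasma cells held it. Iglc2, Ighm and Ighg3 completed the 5 lowest.

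Nlrc4 DSS colon was also set against DSS colon, which asks what the Nlrc4 deficiency adds under the same treatment. Of 6679 genes 42 (0.629%) were at least 2 times higher and 128 (1.92%) at least 2 times lower. Ighg1 had 4668 CPM in Nlrc4 DSS colon and 7.69 CPM in DSS colon, and Ighm 49 and 5019 CPM, which are the isotype counts on another scale. Hmox1 had 173 and 21.8 CPM, and in DSS colon 27 of 118 cells held a UMI of it. Hspa1a, a heat shock protein gene, had 92.6 and 20.5 CPM, and Fdps, an enzyme of cholesterol synthesis, 84.3 and 19.2 CPM. Spink4, Muc2 and Agr2 were low in Nlrc4 DSS colon, at 0 to 0.436 CPM, against 405, 215 and 125 CPM in DSS colon, where a single cell held most of each gene's UMIs. Of 17 immediate-early genes 8 were lower in Nlrc4 DSS colon, and Ccr9 was lower, at 20.5 against 72.6 CPM. Each value here belongs to 1 library, and mutation, library and mouse cannot be told apart.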

How the data were processed

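Single-cell 3' libraries of CD11b+ lamina propria cells were deposited as UMI counts per gene and barcode. Per the labels and file headers the authors aligned reads with STAR 2.5.1b in Cell Ranger 3.0.2 to mm10, and the deposited counts are raw and not normalized. From them, barcodes with at most 15% mitochondrial UMIs and at least 200 genes were kept (31759 of 37123), and plasma cells were selected with the limits given in the report. No doublet caller was run, and the limits on Lyz2 and Cd3e were the only guard against doublets.

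Counts summed over the plasma cells of a library, or over 1 class of them, were tested with edgeR 4.0.16 (R 4.3.3; TMM, filterByExpr, quasi-likelihood test, Benjamini-Hochberg, adjusted p of 0.05). The small intestine, GF and SPF libraries shared 1 fit, and the lambda and IgG comparisons had the library as a block with at least 10 cells in each class. DESeq2 1.42.0 was an alternative. The edgeR script was tested on simulated data. Conditions with 1 library were described without a test, and shares have exact intervals (scipy 1.17.1).

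The text names the 10 called genes with the largest change in each direction with at least 50 CPM in a group, or the 5 genes with the largest ratio where there was no test, up to 4 genes of each list, and the chain and selection genes. Variable segments count as a group. The cells and gene lists were chosen with earlier results of these data known. The closing section gives the effect of other filters, thresholds, pseudocounts, normalizations and left-out libraries.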

Additional observations from a re-analysis of the deposited data

How the results depend on the processing

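The GF and antibiotics colon libraries and SPF colon 2 rest on 11 to 44 plasma cells each. None of the differences in isotype and light chain shares passed a test, and the sign of some turned. The IgA difference of GF from SPF colon was 0.788 points with looser plasma cell thresholds, and leaving out 1 library gave -3.86 to 2.96. With 1 library left out, the IgA difference of the small intestine from the SPF colon was -0.229 to 5.35, the IgG differences were -0.668 to 6.15 for the GF colon and -3.89 to 1.99 for the small intestine, and the lambda differences were -15 to -3.48 and -11.5 to 0.0155. The other alternatives kept the sign of each difference. With DESeq2, 6 genes passed for GF against SPF colon, 4 for small intestine against SPF colon and 4 for lambda against kappa cells. With no filter on low counts the numbers were 78, 117 and 97, and 69 for IgG against IgA cells. For lambda against kappa cells, 7 genes passed with immunoglobulin genes left out of the totals, 24 with looser plasma cell thresholds and 1 with no library block, and for IgG against IgA cells 1 passed with no library block and 25 without dividing cells. Leaving out 1 library at a time gave 0 to 12 genes for small intestine against SPF colon, 4 to 46 for lambda against kappa cells and 14 to 32 for IgG against IgA cells. Over the genes named in these comparisons and the alternatives that could test them, the direction and the call were kept in 99 cases and the call was lost in 33 for lambda against kappa cells, and in 112 and 36 cases for IgG against IgA cells. Tff3 in lambda against kappa cells turned to a log2 of 0.23 without the cells with epithelial RNA, most of whose Tff3 UMIs in small intestine 2 lay in a single cell. Ccr9 in small intestine against SPF colon passed the adjusted test only with no filter on low counts, of 17 alternatives. For the other changes the cause was not tested.

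With the replicate number as a block, 2 genes passed for small intestine against SPF colon and 0 for GF against SPF colon. The deviations of libraries with the same number correlated at 0.0489, 0.202 and 0.0491 over genes, and the main fit had no such block. From library 1 to library 2 the plasma cell share went from 3.03% to 0.387% in the GF colon. It went from 44.9% to 4.95% in the small intestine and from 7.15% to 1.69% in the SPF colon. Whether the number marks a batch was not tested. For the single libraries, pseudocounts of 1 and 50 CPM gave 101 and 17 genes higher and 492 and 7 lower in antibiotics colon, 98 and 15 higher and 24 and 2 lower in DSS colon, 66 and 10 higher and 115 and 5 lower in Nlrc4 DSS colon, each against the SPF colon, and 113 and 6 higher and 343 and 26 lower in Nlrc4 DSS against DSS colon. With immunoglobulin genes left out of the totals, antibiotics colon had 100 genes higher and 199 lower and DSS colon 2 lower, and with IgA cells only antibiotics colon had 69 lower. The comparison of IgG with IgA cells, its alternatives, and the alternatives on epithelial RNA, dividing cells and the selection without Jchain were chosen after seeing the data. The planned test of IgM against IgA cells could not be run, since no library held 10 IgM cells.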

Other observations

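Plasma cells were also read for their variable segments, which record the antibody a cell makes. A heavy and a light chain variable segment, each with at least 5 UMIs and 50% of its family's UMIs, could be assigned in 978 plasma cells, which held 520 distinct pairs. Of these pairs 84 occurred in at least 2 libraries and 22 in at least 3. In small intestine 1, 578 cells held 300 pairs, and 380 cells (65.7%) shared their pair with another cell of that library. The pairs with the most cells there were Ighv6-3 with Igkv1-110 in 20 cells, Ighv1-78 with Igkv6-23 in 19, Ighv3-6 with Igkv12-46 in 17 and Ighv11-2 with Igkv8-30 in 16. Ighv1-81 with Igkv1-117 occurred in 4 libraries, with 14 cells in small intestine 1, 1 in antibiotics colon, and 5 and 1 in SPF colon 1 and 2. A shared pair is not a clone, because junction sequences were not read, and the chance of sharing a pair grows with the number of cells.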
